A study of Sus scrofa with 12 samples.

Results

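The 5 genes described here encode oxidoreductases and a hydrolase that act on retinol, prostaglandins, hydroxyacids, lipids and epoxides: SDR16C5, PTGR2, ADHFE1, HSDL2 and EPHX1. They were picked by name, each was matched to its Ensembl identifier, and they are 5 of the 31903 identifiers with FPKM values (fragments of a transcript scaled to its length and to the mapped fragments of the library). All 5 passed the filter on low values in every comparison. RNA came from Dingyuan pigs, a Chinese native breed, and all animals were unmated sows whose age the labels give as 300 days. Back subcutaneous fat was compared between high (HBF) and low (LBF) backfat thickness, and longissimus dorsi (LD) muscle between high (HIMF) and low (LIMF) intramuscular fat, with 3 libraries in each of the 4 groups and 12 in all. The labels name no genotype, drug or diet, the pigs were chosen for extreme backfat from 1 herd, and whether a fat and a muscle library came from the same pig is not given in the sources used here, although their sample codes share endings. SDR16C5 is among the genes that the study listed for muscle, and ADHFE1, HSDL2 and EPHX1 are among those it listed for fat. PTGR2 comes from its muscle protein list, where the protein was lower in HIMF than in LIMF. A test of these genes in those same contrasts is therefore not independent of how they were picked, whereas the difference between fat and muscle was not used to pick them.

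SDR16C5 is a membrane-bound short-chain dehydrogenase that oxidises retinol to retinaldehyde, the step before retinoic acid, which acts through nuclear receptors on many genes, those of fat cells included. PTGR2 reduces the keto-prostaglandins that arise when prostaglandins are inactivated, and ADHFE1 is a mitochondrial transhydrogenase that oxidises gamma-hydroxybutyrate while reducing alpha-ketoglutarate. HSDL2 is a peroxisomal short-chain dehydrogenase-like protein with a sterol carrier domain, and EPHX1 is the microsomal epoxide hydrolase, which opens reactive epoxides to diols. In the RefSeq annotation of Sscrofa11.1, SDR16C5 lies at chr4:75586346-75598985, ADHFE1 at chr4:68251970-68285436, PTGR2 at chr7:97174143-97195601, HSDL2 at chr1:253124358-253191309 and EPHX1 at chr10:13757489-13773071. EPHX1 shares 1277 bases of its span with TMEM63A, and SDR16C5 shares 218 bases with a predicted protein-coding gene. Whether counting used strand is not given, so reads in those stretches cannot be told apart.

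The libraries held the tissue they are labelled as, and 1 of the fat libraries also held muscle RNA. Summed over the 13 measured adipocyte markers, fat libraries had 10228 to 15320 FPKM and muscle libraries 454 to 935 FPKM. LBF replicate 3 carried muscle RNA: its TNNT3 and TNNI2, troponins of fast fibres, were at 35 and 43.2 FPKM against at most 0.18 and 0.55 FPKM in the other 5 fat libraries. In the muscle, ACTA1 was listed at 0 in 4 of 6 libraries and CKM in 2, although TNNT3 was at 2572 FPKM or above in all 6, so a value of 0 there cannot be read as absence. LIMF replicate 3 stood apart for several genes, with TNNT1, a troponin of slow fibres, at 1851 FPKM against 349 to 765 FPKM in the other 5 muscle libraries. Spearman correlations between libraries were 0.949 to 0.957 within fat and 0.936 to 0.953 within muscle. The depth behind an FPKM value is not contained in the table, and no counting error could be given.

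All 5 genes differed between the tissues, 3 of them higher in fat and 2 higher in muscle, and SDR16C5 differed most. The limits were an adjusted p under 0.01 in limma together with a log2 fold change of 1 or more in size, and 56.4% of all 15965 genes tested passed them, 47.1% higher and 9.29% lower in fat. The libraries of the tissues did not overlap for 2 of the 5, SDR16C5 and PTGR2, against 59.6% of all genes. Between HBF and LBF 0 of the 5 passed these limits, against 0% of all 16239 genes. The study, with DESeq2 at the same limits, called genes in the fat and muscle contrasts, ADHFE1, HSDL2 and EPHX1 among those of fat. The 0% here, and that given below for muscle, belong to limma on log2 FPKM with 3 libraries in a group. At an unadjusted p under 0.05, 3 of 5 were lower in HBF, where 4.22% of all genes were lower, 9.36% higher and 13.6% either. That split holds for FPKM as deposited. After median-of-ratios scaling 6.23% of all genes were lower and 5.998% higher. Quantile normalization gave 6.55% and 5.86%, and 3 of the 5 were lower under each. The same 3, ADHFE1, HSDL2 and EPHX1, had every HBF library below every LBF library, against 6.46% of all genes. Between HIMF and LIMF 0 of the 5 passed the limits, against 0% of 14292 genes, and 1 of 5, SDR16C5, had an unadjusted p under 0.05, where 7.02% of all genes did, 4.51% higher and 2.52% lower in HIMF. It also had every HIMF library above every LIMF library, against 7.93% of all genes. With 3 libraries against 3, an exact permutation test cannot give a p below 0.1, so complete separation of the libraries is all that it can show.

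**Figure D1:**
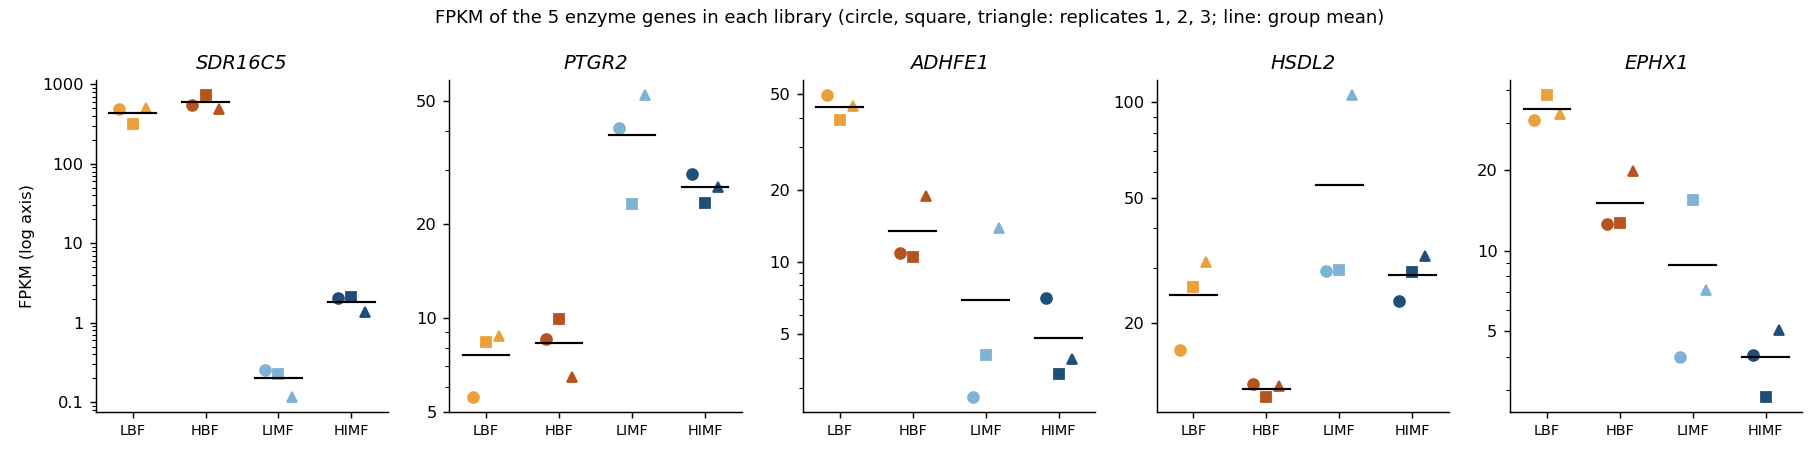
FPKM on a log axis for each of the 5 genes in the 3 libraries of LBF, HBF, LIMF and HIMF, where marks are libraries and lines are group means. SDR16C5 is above 313 FPKM in every fat library and at 2.11 FPKM or less in every muscle library, and PTGR2 shows the opposite order of tissues at a smaller distance.

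SDR16C5 was among the abundant transcripts of back fat and had far lower values in muscle. It was at 491, 313 and 499 FPKM in the LBF libraries and at 547, 739 and 494 FPKM in HBF. The muscle values were 0.257, 0.224 and 0.117 FPKM in LIMF and 2.07, 2.11 and 1.37 FPKM in HIMF. Fat and muscle libraries did not overlap, and within muscle every HIMF library lay above every LIMF library, while HBF and LBF libraries overlapped. In fat its place among all identifiers in order of FPKM ran from 67 to 146, and in muscle from 7140 to 12939. On the log2(FPKM + 0.1) scale the difference of fat from muscle was 9.38 ± 0.19 (SE, n = 6 and 6; limma adjusted p = 2.45e-11), the second highest of all genes tested. The exact permutation test, two-sided, gave p = 0.0022, the smallest that 924 relabellings allow.

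In muscle the mean of SDR16C5 was 1.85 ± 0.42 FPKM in HIMF and 0.199 ± 0.073 FPKM in LIMF (SD, n = 3 each), a 9.28-fold ratio. The log2 fold change was 2.71 ± 0.32 (SE), and with the 6 muscle libraries alone it did not pass after adjustment (limma adjusted p = 0.362). Fitted with all 12 libraries, which share 1 estimate of the spread, it was the 1 gene that passed (limma adjusted p = 0.00478). The size depended on the constant added before taking logs, since the values are low, and was 1.24 with a pseudocount of 1 and 3.19 with 0.01. The study had listed SDR16C5 for this contrast, so its direction here is no independent evidence. In fat, which was not used to pick it, HBF had 593 ± 129 and LBF 434 ± 105 FPKM (SD, n = 3 each), a log2 difference of 0.46 with a 95% interval of -0.14 to 1.06 (limma adjusted p = 0.468), and it was 0.24 without LBF replicate 2 and 0.29 without HBF replicate 2. The difference of HBF from LBF minus that of HIMF from LIMF was -2.25 ± 0.37 (SE; limma unadjusted p = 6.51e-05, adjusted p = 0.148), and the exact permutation test within tissues gave p = 0.095. That difference holds the muscle contrast SDR16C5 was listed for and is not independent of it. At an adjusted p under 0.05 the interaction was passed by 0% of all genes. Without LIMF replicate 3 it was passed by 118 genes, SDR16C5 among them, at -2.04 (limma adjusted p = 0.0426). With a pseudocount of 1 its value was -0.78 (limma adjusted p = 0.375) and with 0.01 it was -2.73, and the highest adjusted p of any alternative was 0.436 in limma, without HIMF replicate 2.

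Some adipocyte markers separated HIMF from LIMF in the direction of SDR16C5, and others did not. Of the 13 measured, 5 had every HIMF library above every LIMF library and 1, LPL, had every HIMF library below, against 7.93% and 4.74% of all genes, while the other 7 overlapped and none passed the limits. The 4 with negative values were LPL, LIPE, PNPLA2 and PLIN4, at -1.30, -0.88, -0.50 and -0.20 on the log2 scale. The study's table gives LPL a positive log2 fold change in this contrast, outside its limits, opposite in sign to the value here. The cause of that disagreement was not tested. GPD1, 1 of the 5 that separated upward, was itself at -0.96 for fat against muscle, with overlapping libraries. The summed level overlapped at 454 to 935 FPKM in LIMF and 787 to 921 FPKM in HIMF. PLIN1, the coat protein of the fat droplet, was at 0.975, 1.70 and 0.343 FPKM in the LIMF libraries and at 4.90, 3.67 and 2.71 FPKM in HIMF. ADIPOQ, the adiponectin gene, was at 4.27, 6.46 and 1.31 FPKM in the LIMF libraries and at 21.8, 8.36 and 11.2 FPKM in HIMF. LEP, the leptin gene, was at 0.0992, 0.0478 and 0.0310 FPKM in the LIMF libraries and at 0.453, 0.440 and 0.348 FPKM in HIMF. The study had listed LEP for this contrast, so its direction here is no independent evidence. None of the 13 was at 0 in any library, and in bulk tissue more cells of a type and more RNA per cell cannot be told apart. SDR16C5 was also divided by 5 of the markers in the same library, ratios picked after values were seen and not tested, and 4 of the 5 had every HIMF library above every LIMF library. Divided by PLIN1 it was 0.131 to 0.342 in LIMF, 0.423 to 0.573 in HIMF and 0.478 to 0.960 in fat. Divided by ADIPOQ it was 0.0347 to 0.0896 in LIMF and 0.0949 to 0.252 in HIMF, by CIDEC 0.201 to 0.492 and 0.996 to 1.66, and by PPARG 0.159 to 0.922 and 1.81 to 3.33. Divided by LEP it was 2.59 to 4.68 in LIMF and 3.94 to 4.78 in HIMF, which overlapped. The fibroblast, endothelial, leukocyte and blood sums overlapped between HIMF and LIMF, the sum for mesothelium and skin was 1.68 to 5.17 FPKM in LIMF and 0.228 to 0.366 FPKM in HIMF, and the muscle fibre sum, which holds the values of 0 above, was 9852 to 20066 and 21083 to 29207 FPKM. The part of fat cells or of other cells in the SDR16C5 difference was not tested.

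**Figure D2:**
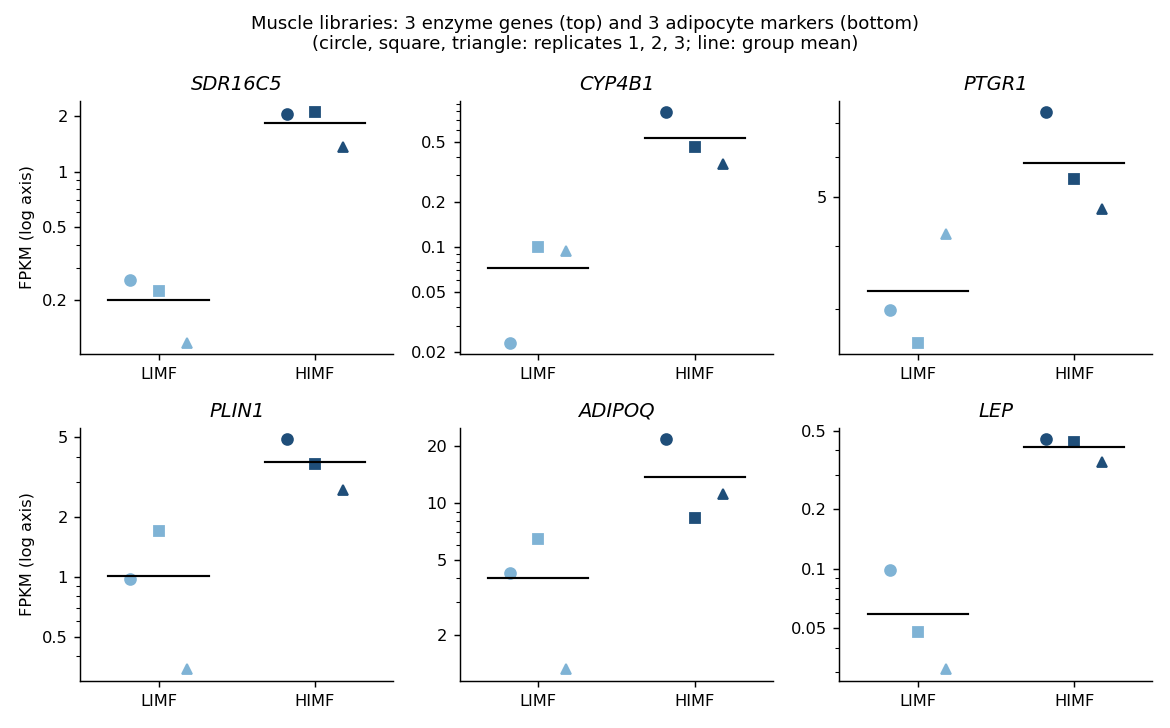
FPKM on a log axis in the LIMF and HIMF muscle libraries for SDR16C5, CYP4B1 and PTGR1 (top) and for the adipocyte markers PLIN1, ADIPOQ and LEP (bottom), where marks are libraries and lines are group means. The 3 markers are among the 5 of 13 that separated upward, and in each of the 6 panels all 3 HIMF libraries lie above all 3 LIMF libraries.

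The 3 genes closest to SDR16C5 over the 12 libraries were CYP4B1, a fatty acid and xenobiotic hydroxylase, APOE, the apolipoprotein E gene, and PLIN1. The measure was the root mean square distance between log2(FPKM + 0.1) values centred on each gene's mean, among 9858 genes, and it was 0.54, 0.59 and 0.68. All 3 were far higher in fat, by 9.81, 8.88 and 8.38 on the log2 scale, and in muscle they differed between HIMF and LIMF by 1.85, 1.43 and 1.98. CYP4B1 was at 0.0231, 0.1005 and 0.0946 FPKM in the LIMF libraries and at 0.788, 0.461 and 0.356 FPKM in HIMF, and the study had also listed it for muscle.

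Of 36 genes listed for retinoid handling, 29 were tested between the tissues, of which 20 were higher in fat, where 47.1% of all genes were, and 1 was lower, with a median log2 difference of 2.15 against 0.97 over all genes. Next to SDR16C5 came RDH5, a retinol dehydrogenase, at 7.55 ± 0.39 (SE), and RBP4, the carrier of retinol in blood, at 7.37 ± 0.29. DHRS3, which turns retinaldehyde back to retinol, was higher in fat by 1.29 ± 0.35, and ADH5 by 1.12 ± 0.13. RXRG, a retinoid X receptor, was the 1 gene lower in fat, at -1.90 ± 0.46 (limma adjusted p = 0.0024). Between HBF and LBF 0 of 29 passed the limits, 2 had an unadjusted p under 0.05 upward and 2 downward, shares near the 9.36% and 4.22% of all genes. The receptor RARA was at 10.5 to 13.8 FPKM in LBF and 17.1 to 21.7 FPKM in HBF (limma adjusted p = 0.245), and ALDH1A1, which makes retinoic acid from retinaldehyde, was at 64.4 to 174 FPKM in LBF and 34.3 to 58.3 FPKM in HBF (limma adjusted p = 0.286). Between HIMF and LIMF 0 of 27 passed, with a median of -0.12 against 0.04 over all genes. DHRS3 differed there by 1.60 ± 0.54 (limma adjusted p = 0.619) and RXRG by 0.98 ± 0.45 (limma adjusted p = 0.719), both with overlapping libraries.

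The PTGR2 transcript was higher in muscle and showed no separation between high and low groups in either tissue. It was at 5.58, 8.40 and 8.75 FPKM in the LBF libraries and at 8.53, 9.94 and 6.45 FPKM in HBF. In muscle it was at 40.8, 23.2 and 52.2 FPKM in the LIMF libraries and at 29.1, 23.5 and 26.4 FPKM in HIMF. The lowest muscle library lay above the highest fat library, whereas the groups within each tissue overlapped, and LIMF held both the highest and the lowest muscle value. The log2 difference of fat from muscle was -1.98 ± 0.20 (SE; limma adjusted p = 2.30e-06), with an exact permutation p of 0.0022. HIMF differed from LIMF by -0.48 with a 95% interval of -1.18 to 0.22 (limma adjusted p = 0.800), and by -0.81 without LIMF replicate 2 and -0.23 without LIMF replicate 3. HBF differed from LBF by 0.14 with an interval of -0.42 to 0.70 (limma adjusted p = 0.834), and the sign turned without LBF replicate 1, at -0.07, and without HBF replicate 2, at -0.0034. The difference between these differences was 0.62 ± 0.41 (SE; limma adjusted p = 0.626), and it was 0.95 without LIMF replicate 2 and 0.37 without LIMF replicate 3. Its closest genes were STARD7, MAPK6 and GCLM, at distances of 0.25, 0.29 and 0.31, and all 3 were lower in fat, by 1.98, 1.98 and 2.10 on the log2 scale.

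PTGR1, the other prostaglandin reductase of the list with a large tissue difference, had the opposite order. It was at 294, 272 and 254 FPKM in the LBF libraries and at 209, 359 and 316 FPKM in HBF, against 2.98, 2.58 and 4.21 FPKM in LIMF and 7.34, 5.41 and 4.73 FPKM in HIMF. The ratio of PTGR1 to PTGR2 within a library was 24.5 to 52.7 in fat and 0.073 to 0.252 in muscle, so the reductase with more transcript per length changed with the tissue. Fat exceeded muscle by 6.0 ± 0.17 (SE; limma adjusted p = 1.05e-10) for PTGR1. HIMF exceeded LIMF by 0.83 ± 0.27 in PTGR1 (limma adjusted p = 0.606), with all HIMF libraries above all LIMF libraries. Of the 13 adipocyte markers given above, 5 also had every HIMF library above every LIMF library, PLIN1, ADIPOQ and LEP among them, while the sum over all 13 overlapped. Their part in the PTGR1 difference was not tested.

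Of the 26 genes listed for prostaglandin handling, 22 were tested between the tissues, with 18 higher and 3 lower in fat and a median of 2.22, where 47.1% of all genes were higher and 9.29% lower with a median of 0.97. PTGES, an inducible prostaglandin E synthase, and PTGER3, a receptor for prostaglandin E, were higher in fat by 5.38 ± 0.39 and 5.29 ± 0.35 (SE). With PTGR2, the synthases PTGES2 and PTGES3 were lower in fat, at -1.64 ± 0.21 and -1.15 ± 0.18. Between HBF and LBF 0 of 22 passed, with 3 at an unadjusted p under 0.05 upward and 1 downward, near the 9.36% and 4.22% of all genes. The 1 downward was HPGD, which starts prostaglandin breakdown, at 4.54 to 11.0 FPKM in LBF and 1.25 to 2.62 FPKM in HBF (limma adjusted p = 0.228). HPGD is also among the oxidoreductases that the study named, so its direction is no independent evidence. PTGER4, another prostaglandin E receptor, was at 3.02 to 5.93 FPKM in LBF and 8.72 to 8.85 FPKM in HBF (limma adjusted p = 0.233). Between HIMF and LIMF 0 of 18 passed, and besides PTGR1 the receptor PTGFR had the smallest unadjusted p, at 0.208 to 0.232 FPKM in LIMF and 0.376 to 0.554 FPKM in HIMF (limma adjusted p = 0.645).

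**Figure D3:**
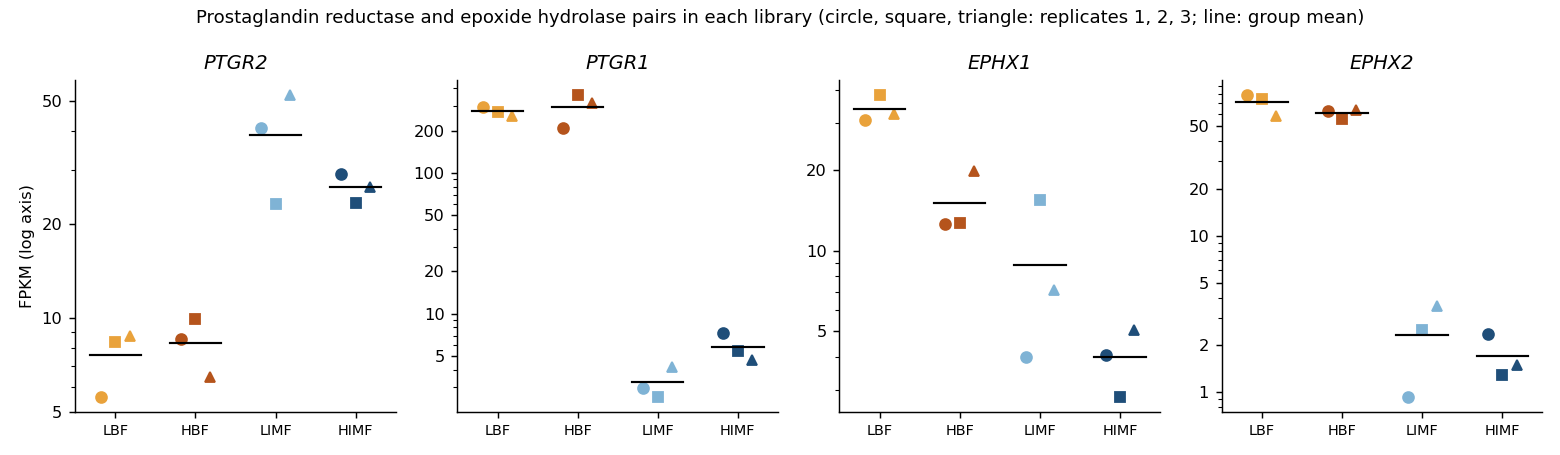
FPKM on a log axis for PTGR2 and PTGR1 and for EPHX1 and EPHX2 in the 3 libraries of each group, where marks are libraries and lines are group means. PTGR2 is higher in the muscle libraries and PTGR1 in the fat libraries, and EPHX2 separates the tissues without overlap while EPHX1 does not.

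ADHFE1 was higher in fat than in muscle and higher in LBF than in HBF. It was at 49.7, 39.1 and 44.5 FPKM in the LBF libraries and at 10.9, 10.5 and 18.9 FPKM in HBF. In muscle it was at 2.75, 4.08 and 13.9 FPKM in the LIMF libraries and at 7.07, 3.40 and 3.96 FPKM in HIMF. Every HBF library lay below every LBF library, and LIMF replicate 3 lay above 2 of the 3 HBF libraries, so the tissues overlapped. The difference of fat from muscle was 2.25 ± 0.35 on the log2 scale (SE; limma adjusted p = 8.21e-05; exact permutation p = 0.0065). The means were 44.4 ± 5.31 FPKM in LBF and 13.4 ± 4.73 FPKM in HBF (SD, n = 3 each), a log2 fold change of -1.77 ± 0.24 (SE). After adjustment this did not pass (limma unadjusted p = 1.51e-04, adjusted p = 0.154). Without LBF replicate 3, the library with muscle RNA, it was -1.76. In muscle the difference was -0.24 with a 95% interval of -1.56 to 1.09 (limma adjusted p = 0.949), and without LIMF replicate 3 it turned to 0.44. The difference between the tissues in these changes was -1.53 ± 0.70 (SE; limma adjusted p = 0.486), and without LIMF replicate 3 it was -2.20 (limma adjusted p = 0.0612).

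The genes nearest to ADHFE1 were SLC25A35, a mitochondrial carrier, ECHS1, a hydratase of fatty acid oxidation, and MS4A2, at distances of 0.46, 0.50 and 0.51. All 3 had negative values for HBF against LBF, at -1.22, -1.08 and -1.38, and positive ones for fat against muscle, at 2.47, 1.82 and 2.08. Of 17 genes listed for hydroxyacid and ketoacid handling, 16 were tested, and their median difference of HBF from LBF was -0.33 against 0.09 over all genes. None passed the limits there, and 3 of 16 were lower at an unadjusted p under 0.05, where 4.22% of all genes were, with ADHFE1, picked from this contrast, 1 of the 3. LDHD, a dehydrogenase of D-lactate, differed by -0.50 ± 0.19 (limma adjusted p = 0.337). Between HIMF and LIMF 0 of 16 passed. BDH1, which acts on ketone bodies, was at 10.8, 8.32 and 3.73 FPKM in LIMF and 1.60, 1.24 and 3.59 FPKM in HIMF (limma adjusted p = 0.544), and LDHA differed by 0.89 ± 0.42 (limma adjusted p = 0.725). The study had also listed BDH1 for muscle. Between the tissues 5 of 16 were higher and 4 lower in fat, beside 47.1% and 9.29% of all genes. IDH1, the cytosolic isocitrate dehydrogenase, was higher by 4.87 ± 0.23, and HAO2, a hydroxyacid oxidase, by 2.64 ± 0.79. LDHA and the mitochondrial IDH2 were lower, at -5.01 ± 0.24 and -4.01 ± 0.18.

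HSDL2 had the lowest values in HBF and the widest spread in LIMF. It was at 16.6, 26.1 and 31.2 FPKM in the LBF libraries and at 12.8, 11.7 and 12.7 FPKM in HBF. In muscle it was at 29.2, 29.6 and 105.5 FPKM in the LIMF libraries and at 23.5, 29.1 and 32.7 FPKM in HIMF. The 3 HBF libraries lay close together and below all others, LIMF replicate 3 lay far above the rest, and LBF overlapped with both muscle groups. The difference of HBF from LBF was -0.93 ± 0.23 (SE; limma unadjusted p = 0.0049, adjusted p = 0.243), and -0.74 without LBF replicate 3. HIMF differed from LIMF by -0.68 ± 0.48 (limma adjusted p = 0.819), and by -0.06 without LIMF replicate 3. Fat was lower than muscle by 1.05 ± 0.30 on the log2 scale (limma adjusted p = 0.00624; exact permutation p = 0.022), which was close to both limits. That call was lost on leaving out any of LBF replicates 1 and 2, the 3 HBF libraries, LIMF replicate 3 or HIMF replicates 2 and 3, with values from -0.74 without LIMF replicate 3 to -1.08 without LBF replicate 2. The change between high and low did not pass a test of a difference between tissues, at -0.26 with a 95% interval of -1.55 to 1.03 (limma adjusted p = 0.903), and it turned to 0.05 and 0.04 without LIMF replicates 1 and 2.

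The nearest genes to HSDL2 were KLHDC3, HADHA, a subunit of the trifunctional protein of fatty acid oxidation, and NDUFS8, a subunit of respiratory complex I, at distances of 0.38 each. All were lower in fat, at -0.90, -1.05 and -1.22. Among peroxisomal and short-chain lipid dehydrogenases 19 of 23 listed genes were tested, and 16 of 19 had negative values for HBF against LBF, with a median of -0.24 against 0.09 over all genes. None passed the limits, 7 of 19 were lower at an unadjusted p under 0.05 and none higher, beside 4.22% and 9.36% of all genes, and HSDL2, picked from this contrast, is 1 of the 7. HSD17B10, a mitochondrial dehydrogenase of branched-chain and steroid substrates, was at 131 to 141 FPKM in LBF and 65.7 to 94.0 FPKM in HBF (limma adjusted p = 0.222). DECR2, a peroxisomal reductase of unsaturated fatty acyl chains, was at 16.5 to 17.5 FPKM in LBF and 10.4 to 12.5 FPKM in HBF (limma adjusted p = 0.227). In muscle 0 of 19 passed, and the median was 0.08 against 0.04. DECR2 had the opposite sign there, at 2.95 to 7.0 FPKM in LIMF and 7.26 to 9.16 FPKM in HIMF (limma adjusted p = 0.650), and its difference between the tissues was -1.41 ± 0.35 (limma adjusted p = 0.292). HSD11B1, which regenerates cortisol, differed by 0.75 ± 0.46 in muscle (limma adjusted p = 0.793). Between the tissues 13 of 19 were higher in fat, where 47.1% of all genes were, and 2 lower. ACAA1, the peroxisomal thiolase, led at 5.63 ± 0.17, and HSD17B4, the peroxisomal bifunctional enzyme, was higher by 2.40 ± 0.14, and the genes lower in fat were HSDL2 and PHYH, at -1.05 ± 0.22 for PHYH.

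EPHX1 was higher in LBF than in HBF and higher in fat than in muscle. It was at 30.8, 38.3 and 32.6 FPKM in the LBF libraries and at 12.6, 12.7 and 19.9 FPKM in HBF. In muscle it was at 4.0, 15.5 and 7.09 FPKM in the LIMF libraries and at 4.06, 2.83 and 5.05 FPKM in HIMF. The LBF libraries lay above all others, and LIMF replicate 2 lay above 2 HBF libraries and far from the other muscle libraries. The difference of fat from muscle was 2.01 ± 0.28 (SE; limma adjusted p = 3.53e-05; exact permutation p = 0.0065). Between HBF and LBF it was -1.20 ± 0.21 (SE; limma unadjusted p = 6.32e-04, adjusted p = 0.198), from means of 15.0 ± 4.17 and 33.9 ± 3.92 FPKM (SD, n = 3 each). TMEM63A, given only because its span overlaps that of EPHX1, had 0.38 ± 0.19 in the same contrast (limma adjusted p = 0.416). TMEM63A had the sign of EPHX1 for HIMF against LIMF, at -0.62 ± 0.27 with every HIMF library lower (limma adjusted p = 0.707). It also had that sign for fat against muscle, at 2.53 ± 0.15 with no overlap (limma adjusted p = 2.57e-08). For the difference between tissues in high against low TMEM63A was at 1.0 ± 0.30 (limma adjusted p = 0.365), opposite in sign to EPHX1. The part of shared reads in the EPHX1 values was not tested. Between HIMF and LIMF EPHX1 differed by -0.96 with a 95% interval of -2.04 to 0.12 (limma adjusted p = 0.740), and by -0.45 without LIMF replicate 2. The sizes in fat and in muscle differed by -0.24 with an interval of -1.47 to 1.0 (limma adjusted p = 0.907), which turned to 0.22 without LIMF replicate 1.

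EPHX2, the soluble epoxide hydrolase that acts on fatty acid epoxides, separated the tissues more widely. It was at 79.3, 74.9 and 58.5 FPKM in the LBF libraries and at 62.4, 55.9 and 63.7 FPKM in HBF, and at 0.937 to 3.56 FPKM in the 6 muscle libraries. The ratio of EPHX2 to EPHX1 within a library was 1.79 to 2.57 in LBF, 3.21 to 4.97 in HBF and 0.160 to 0.581 in muscle, so EPHX1 had more transcript per length in every muscle library and less in every fat library. These ratios were picked after their values were seen and were not tested. The genes nearest to EPHX1 were GBE1, the glycogen branching enzyme, MCCC2, a subunit of methylcrotonyl-CoA carboxylase, and PELI2, at distances of 0.36, 0.38 and 0.41.

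Among genes of epoxide and xenobiotic handling, 23 of 28 listed were tested, with 16 higher and 1 lower in fat and a median of 2.04, beside 47.1% and 9.29% of all genes and their median of 0.97. CYP4B1 was higher in fat by 9.81 ± 0.20, MGST1, a microsomal glutathione transferase, by 6.90 ± 0.37, and EPHX2 by 5.07 ± 0.27. CBR4, a mitochondrial reductase, was the 1 gene lower in fat, at -1.06 ± 0.29 (limma adjusted p = 0.0051). Between HBF and LBF 0 of 23 passed, and 5, EPHX1 included, were lower and 1 higher at an unadjusted p under 0.05, where 4.22% of all genes were lower and 9.36% higher. MGST1 was at 124 to 130 FPKM in LBF and 59.0 to 88.8 FPKM in HBF (limma adjusted p = 0.233), and CBR4 was at 5.22 to 5.49 FPKM in LBF and 3.40 to 4.25 FPKM in HBF (limma adjusted p = 0.279). Between HIMF and LIMF 0 of 22 passed. CYP4B1 had the smallest p (limma adjusted p = 0.464), and NQO2, a quinone reductase, differed by -0.54 ± 0.28 (limma adjusted p = 0.743).

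**Figure D4:**
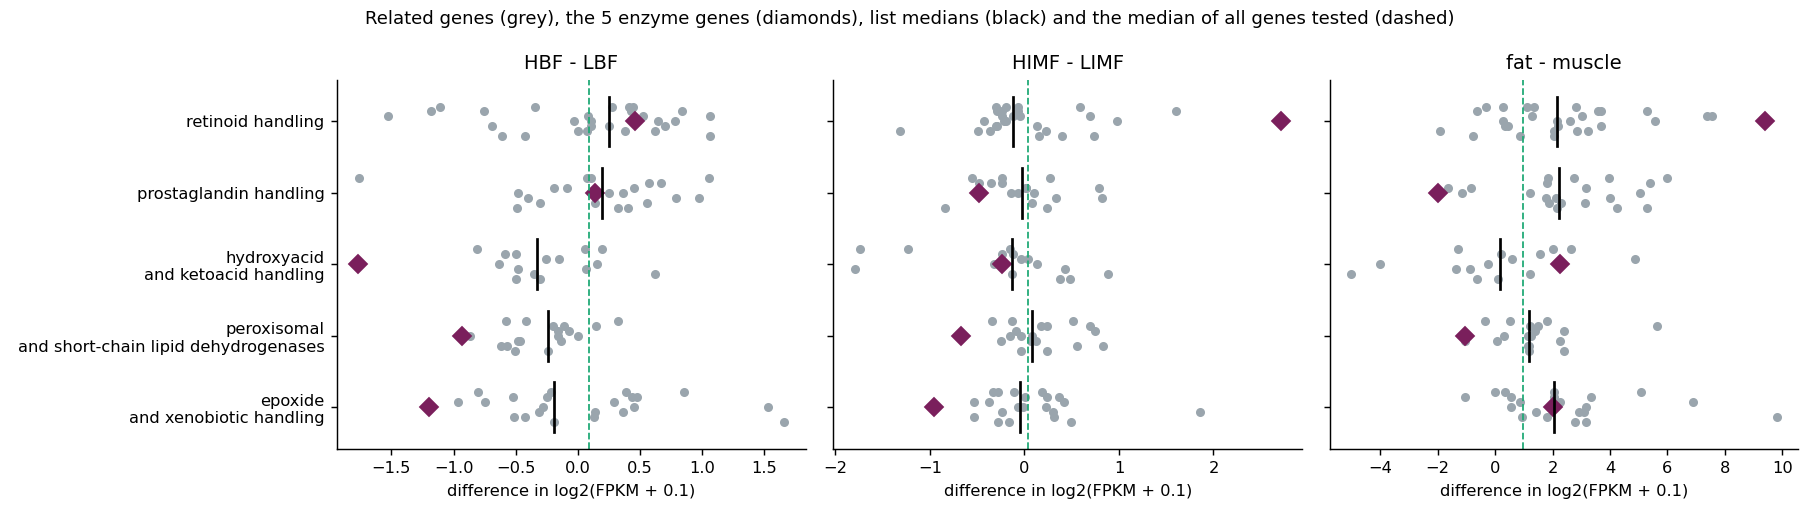
Differences in log2(FPKM + 0.1) for the genes of 5 lists (grey circles) and for the 5 genes described here (diamonds) in HBF minus LBF, HIMF minus LIMF and fat minus muscle, with the median of each list as a black bar and the median of all genes tested as a dashed line. ADHFE1, HSDL2 and EPHX1 sit at the low end of their lists in HBF minus LBF, and SDR16C5 sits at the high end of its list in HIMF minus LIMF. Each was listed by the study for that contrast, so its place is not independent of how it was picked.

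A further list held 22 oxidoreductases that the study named, and since it chose them on these libraries their directions are no independent evidence. Of 21 tested, 13 were lower in HBF at an unadjusted p under 0.05 and 1 was higher, beside 4.22% and 9.36% of all genes, with a median of -1.04 against 0.09, and none passed the limits. GCDH, which degrades lysine and tryptophan, was at 21.9 to 24.0 FPKM in LBF and 10.5 to 11.4 FPKM in HBF (limma adjusted p = 0.128), and ALDH1L1, a dehydrogenase of folate, at 41.8 to 72.6 FPKM in LBF and 8.08 to 15.1 FPKM in HBF (limma adjusted p = 0.140). In muscle 3 were lower and 1 higher at an unadjusted p under 0.05, beside 2.52% and 4.51% of all genes, and CYP4B1 and BDH1, given above, had the smallest p. Between the tissues 12 of 21 were higher and 2 lower in fat, where 47.1% and 9.29% of all genes were. CYP4B1, ALDH1L1 and FMO5 led, at 9.81 ± 0.20, 6.07 ± 0.37 and 3.49 ± 0.28, and IDH3A and SDHD, of the citric acid cycle, were lower at -2.57 ± 0.20 and -1.35 ± 0.18.

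In the test of whether high against low differed between the tissues, 0 genes of the 6 lists passed. At an unadjusted p under 0.05, 2 of the 5 genes described here, SDR16C5 and ADHFE1, differed, where 10.2% of all genes tested did. This difference holds the contrasts that these 2 genes were listed for, so the count is a description and nothing is read from it. Among the other genes, those with the smallest unadjusted p of their lists included RARA at 0.92, HPGD at -2.03, PTGER4 at 0.98 and BDH1 at 1.86. DECR2, CYP4B1, POR and AASS were at -1.41, -1.72, 0.76 and -1.47, and the adjusted p in limma was between 0.265 and 0.531 for these 8 genes. HPGD, BDH1, CYP4B1 and AASS are also among the oxidoreductases that the study chose on these libraries, so nothing is read from their values either.

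**Figure D5:**
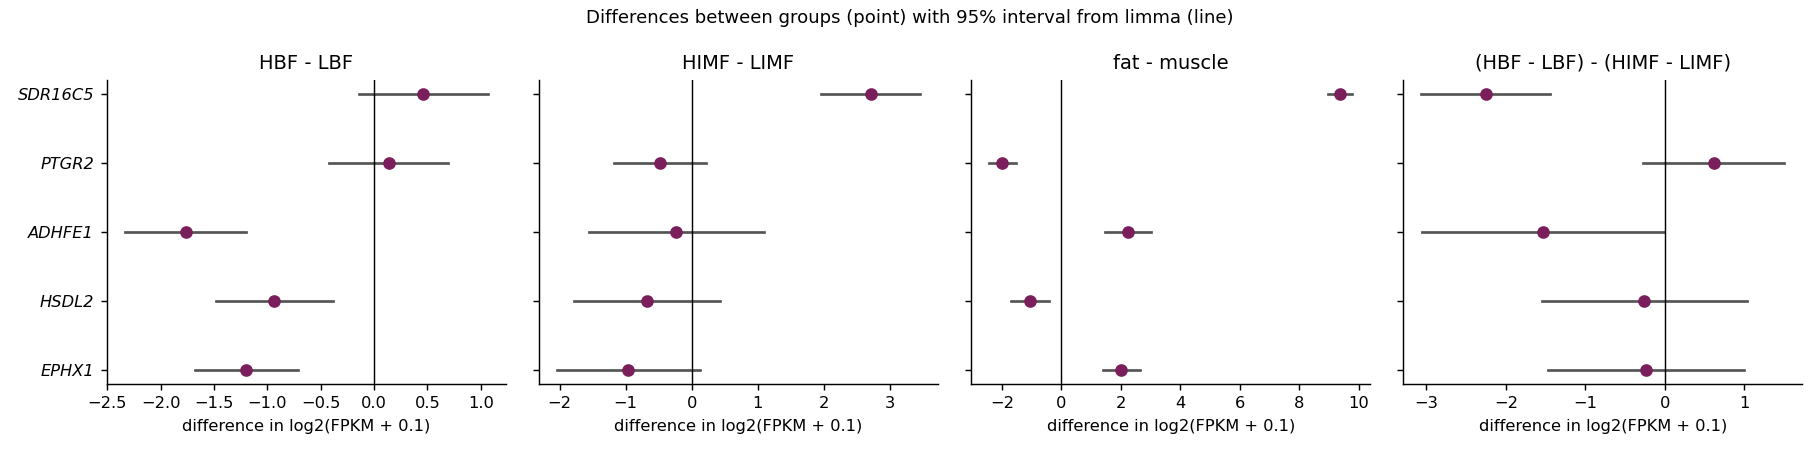
Differences in log2(FPKM + 0.1) for the 5 genes in HBF minus LBF, HIMF minus LIMF, fat minus muscle, and the first minus the second, where points are limma estimates and lines their 95% intervals. The intervals of ADHFE1, HSDL2 and EPHX1 lie below 0 in HBF minus LBF, that of SDR16C5 lies above 0 in HIMF minus LIMF, and all 5 leave out 0 in fat minus muscle.

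Other markers moved between HBF and LBF together with ADHFE1, HSDL2 and EPHX1, and of all genes tested 13.9% had every HBF library above and 6.46% every HBF library below. Both measured blood genes, HBB and ALAS2, were lower in every HBF library, with a sum of 251 to 621 FPKM in LBF and 48.8 to 191 FPKM in HBF. Of 3 measured markers of mesothelium and skin, PRG4 and KRT80, which the study also named, were higher in every HBF library, with a sum of 1.24 to 3.71 FPKM in LBF and 11.8 to 38.8 FPKM in HBF. Of 9 macrophage and leukocyte markers 2 were higher in every HBF library, with sums of 37.6 to 133 and 117 to 140 FPKM, and of 5 endothelial markers 1, with sums of 152 to 314 and 266 to 414 FPKM. None of these 19 markers was at 0 in a fat library. The 7 fibroblast markers summed to 2435 to 7631 FPKM in LBF and 1674 to 3885 FPKM in HBF, and the 13 adipocyte markers to 11799 to 13632 and 10228 to 15320 FPKM, both overlapping. Of the 13 adipocyte markers, LEP had every HBF library above, at 0.96 on the log2 scale (limma adjusted p = 0.325), and FASN and LPL every HBF library below, at -2.91 and -0.95 (limma adjusted p = 0.189 and 0.251). The study also named LEP, FASN and LPL, LEP for muscle and FASN for fat. Its table gives FASN as lower in HBF too, but LPL as higher in HBF, opposite in sign to the value here. The muscle fibre sum was 2.47 to 251 FPKM in LBF and 0.940 to 4.24 FPKM in HBF. The part of these cells in the differences was not tested.

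The tissue values depend on how libraries are set to each other. The median of all genes lay 0.97 higher in fat on the log2 scale, and 0.15 higher after median-of-ratios scaling and 0.06 higher after quantile normalization. Of the calls, 7526 were higher and 1483 lower in fat as deposited, 4210 and 3410 after median-of-ratios scaling and 3581 and 3194 after quantile normalization. Relative to the median of all genes, SDR16C5, ADHFE1 and EPHX1 were 8.41, 1.28 and 1.05 above and PTGR2 and HSDL2 were -2.95 and -2.01 from it. No sign of the 5 turned under either scaling. With median-of-ratios scaling the values were 8.42 for SDR16C5, -3.02 for PTGR2, 1.21 for ADHFE1, -2.09 for HSDL2 and 0.98 for EPHX1, which then missed the limit on fold change. The counts of the lists moved with the scaling. Of the 19 peroxisomal and short-chain lipid dehydrogenases, 4 were higher in fat under the first scaling and 6 under the second, where 26.4% and 22.4% of all genes were. Of the 16 genes of hydroxyacid and ketoacid handling, 2 and 3 were higher and 7 were lower under each, where 21.4% and 20.01% of all genes were lower, and their median turned from 0.16 to -0.88 and -0.21. The retinoid list had 16 and 14 of 29 higher, the prostaglandin list 15 and 12 of 22, the epoxide list 12 of 23 under each, and the oxidoreductases that the study named 6 and 7 of 21. Lower in fat were 3 and 3 of the retinoid list, against 1 as deposited, and 4 and 4 of the prostaglandin list, against 3. The peroxisomal list had 3 and 3 lower, against 2, the epoxide list 2 and 1, against 1, and the oxidoreductases that the study named 6 and 5, against 2. Between HBF and LBF, genes lower at an unadjusted p under 0.05 numbered 7 and 6 of the hydroxyacid list, 8 and 8 of the peroxisomal list, 6 and 6 of the epoxide list and 3 and 3 of the retinoid list under these scalings.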

How the data were processed

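Per the labels and the study's methods, RNA of 12 libraries was sequenced, and the authors aligned reads to Sscrofa11.1 with HISAT2 and deposited FPKM per Ensembl gene from Cufflinks 2.2.1. FPKM removes read depth, so low values carry an unknown counting error, and no scaling between libraries beyond FPKM is stated. The table's 31910 rows held 31903 identifiers, and 7 listed on 2 rows were summed. Symbols came from a gene name table for 15027 identifiers and from the study's tables for 27 more.

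Groups were compared with limma 3.58.1 in R 4.3.3 (trend) on log2(FPKM + 0.1), leaving out genes whose mean FPKM was 0.05 or lower, with Benjamini-Hochberg adjustment over every gene kept. Calls needed an adjusted p under 0.01 together with a log2 fold change of 1 or more in size, or for the interaction of tissue and group an adjusted p under 0.05 alone. A fold change on this scale understates that of low genes. Read counts were not used here, so limma stands in for the DESeq2 of the study. The 5 genes were also tested singly by two-sided exact permutation. P-values measure the spread between libraries.

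The 5 genes and all lists were chosen with earlier results of these data known. Named besides them were, from each list, genes that passed (between tissues the 3 largest in each direction), or else the 2 others with the smallest p, and the 3 nearest genes by distance over libraries. LDHB, with 2 identifiers, was left out, and the values of a few genes under this rule are not reported here. Alternatives were other pseudocounts, filters, limits, scalings, fits and left-out libraries. Protein data were not analysed here.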

Additional observations from a re-analysis of the deposited data

How the results depend on the processing

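Of 360 values for the 5 genes under an alternative, 340 kept direction and side of the limits, 11 lost and 2 gained a call, and 7 turned sign. The turns were PTGR2 in HBF against LBF, at -0.00028 with quantile normalization and -0.068 to 0.30 with single libraries left out, ADHFE1 in HIMF against LIMF (-0.71 to 0.44), and the difference between tissues for HSDL2 (-0.87 to 0.054) and EPHX1 (-0.74 to 0.22). The HSDL2 tissue call was also lost with no filter, at -1.05, and with LBF replicate 3 and LIMF replicate 3 both left out, at -0.84. Leaving out single libraries gave 0 to 2 genes for HBF against LBF, 0 to 5 for HIMF against LIMF (5 without LIMF replicate 1), and 0 to 118 for the difference between tissues (118 without LIMF replicate 3). All 12 libraries in 1 fit gave 1 gene for HIMF against LIMF. For fat against muscle a pseudocount of 1 gave 5864 genes against 9009. For the difference between tissues, pseudocounts of 1 and 0.01 and no filter gave 1 gene each, no trend 2, and leaving out LBF replicate 3 and LIMF replicate 3 together, chosen after seeing the data, 20, against 0. Their cause was not tested. Same-numbered libraries did not deviate together in every pair (r of deviations -0.058 to 0.138 within a tissue, 0.048 to 0.169 for LBF with LIMF and -0.073 to -0.053 for HBF with HIMF), so numbers were not taken as pairs. With a replicate block, a term for replicate number shared by all groups in the fit, the counts were 0, 0, 9000 and 0. It changed no call of the 5 genes. That term joins high and low libraries, which come from different pigs, so it cannot show what shared pigs would change. FPKM does not show the depth behind a value.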
